A study of Mus musculus and Homo sapiens with 12 samples.

Results

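Class 3 semaphorins, neuropilins and plexin A1 form a ligand and receptor system, followed here through 7 genes measured in both lines of the series: 4 secreted ligands (SEMA3A, SEMA3C, SEMA3E and SEMA3F) and 3 receptor chains (NRP1, NRP2 and PLXNA1). The genes were picked by name and matched by symbol in the mouse table and by Ensembl identifier in the human table, which gave 14 table rows of 114564. They were picked with earlier results of the same knockout comparison known. Their fold changes and calls are therefore given as a description, without p-values.

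The libraries were made from poly(A) RNA of EMT6 cells, which come from a mammary carcinoma of the mouse, and of MDA-MB-231 cells, which come from a breast adenocarcinoma of a patient. High-glucose medium with serum was used for culture. The groups are EMT6 with PFKFB4 knocked out (3 libraries), EMT6 wild type (3), MDA-MB-231 with PFKFB4 knocked out (3) and MDA-MB-231 wild type (3). PFKFB4 is a bifunctional enzyme that makes and breaks down a sugar phosphate known to activate glycolysis, and the comparison asks which transcripts differ between cells labelled as its knockout and wild-type cells. The knockout columns of the tables carry 1 code per line (A7 and G2) that no label explains, and the labels call the libraries biological replicates without naming the cultures or clones behind them.

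Class 3 semaphorins are secreted guidance cues, first known as repellents of growing axons. They act on cells through a neuropilin, which binds the ligand, paired with a type A plexin, whose intracellular part acts on small GTPases and through them on the actin cytoskeleton and on adhesion. SEMA3A acts mainly through NRP1, SEMA3F prefers NRP2, SEMA3C can use either, and SEMA3E binds plexin D1 without a neuropilin. Neuropilins also serve as co-receptors for vascular endothelial growth factors, and in tumours members of the family have been described both as inhibitors and as promoters of growth, vessel formation and spread.

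Expression is given as TPM (transcripts per 1000000), the authors' length-corrected abundance, which sums to 1000000 in each library, so levels of different genes within a library can be compared. Knockout libraries of EMT6 held 11871 to 12015 genes at 1 TPM or more, against 12350 to 12426 in wild type. For MDA-MB-231 the counts were 13038 to 13338 in the knockout and 13423 to 13593 in wild type. The numbers of reads are not known. The transcript of the targeted gene, Pfkfb4, was still present in the EMT6 knockout, at 7.36 ± 0.763 TPM against 10.4 ± 0.178 TPM in wild type (SD, n = 3 each; log2 fold change -0.45, limma adjusted p = 0.00487). In TPM the median log2 fold change of all tested EMT6 genes was itself -0.21, and the change of Pfkfb4 under other scalings is not reported here. The human PFKFB4 transcript was not analysed here. Of 7 epithelial markers in EMT6, Krt8 stood at 535 TPM in the knockout and 482 TPM in wild type, while Epcam, Cdh1 and Krt5 were below 1 TPM in every library. Krt14 stood at 3.94 TPM in the knockout and 36.5 TPM in wild type, and of the 4 tested epithelial markers 3 were called lower and 1 higher. Of 5 mesenchymal markers 4 were tested, of which 3 were called lower and 1, Vim, higher (3292 TPM in the knockout and 2711 TPM in wild type). For comparison, 42.3% of all tested EMT6 genes were called lower and 14.5% higher. The part of these marker differences in the results was not tested. Leukocyte and endothelial markers are considered with the pathway genes.

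Stretches of DNA just upstream of the RefSeq transcription start are shown for the 2 mouse members with the most and the fewest GC boxes, Nrp2 and Sema3a, of the 5 members that had a promoter in the RefSeq table (build GRCm38.p6). The stretches are chr1:62703067-62703284 for Nrp2 and chr5:13396534-13396783 for Sema3a, both on the plus strand, written 5′ to 3′ and cut before the first annotated exon base at that start. The Sema3a start lies 271 kb inside the gene as GENCODE annotates it, so its stretch is intronic to longer transcripts. Capitals mark the GC box GGGCGG or its reverse complement CCGCCC, a letter pattern that zinc-finger factors of the Sp family are known to bind.
Nrp2: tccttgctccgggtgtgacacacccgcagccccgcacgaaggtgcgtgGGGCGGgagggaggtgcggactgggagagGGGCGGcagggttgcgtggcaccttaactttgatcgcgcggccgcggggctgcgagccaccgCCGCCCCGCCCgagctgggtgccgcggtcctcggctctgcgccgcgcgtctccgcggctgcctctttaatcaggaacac
Sema3a: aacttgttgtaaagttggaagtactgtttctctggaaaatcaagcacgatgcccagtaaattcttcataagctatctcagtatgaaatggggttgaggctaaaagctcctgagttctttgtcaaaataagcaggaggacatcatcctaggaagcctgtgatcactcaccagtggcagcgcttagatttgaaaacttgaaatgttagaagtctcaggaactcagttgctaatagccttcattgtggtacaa
In the 250 bases before the start, both strands searched, the GC box occurred 5 times for Nrp2 (overlapping copies counted separately, 1 of them beyond the stretch shown), 3 times for Sema3c, 2 times for Sema3e, 1 time for Nrp1 and 0 times for Sema3a, and 32.7% of the 32851 promoters in the table held at least 1. The same windows held 32 CpG dinucleotides for Nrp2, 39 for Sema3c, 7 for Sema3e, 11 for Nrp1 and 2 for Sema3a, against a median of 6. Among those of these members that passed the expression filter, Nrp2 and Sema3c had the highest counts and the smallest log2 fold changes in EMT6 (-0.34 and -0.26). Nrp1 (-1.69) and Sema3a (-1.18) had lower counts, although Sema3a, not Nrp1, had the lowest. A link between these counts and the changes was not tested. Which start EMT6 uses cannot be read from gene-level TPM.

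In the EMT6 knockout, both neuropilins, plexin A1 and 2 of the ligands were lower, with the largest drop in Nrp1. Limma on log2(TPM + 1), fitted on the 13499 genes that reached 0.5 TPM in 3 or more of 6 libraries, called 5 of the 6 members that passed this filter lower and 0 higher at a Benjamini-Hochberg adjusted p under 0.05. Over all tested genes 42.3% were called lower and 56.7% in either direction, so a lower call was common in this line. All 7 members had every knockout library below every wild-type library, as had 48.3% of tested genes. The median log2 fold change of all tested genes was -0.21 in TPM and -0.0053 after median-ratio scaling, which divides a library by the median, over genes, of its values relative to the geometric mean of all 6 libraries.

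Nrp1 (ENSMUSG00000025810, chromosome 8, 128358604 to 128503363 on GRCm38), the neuropilin that SEMA3A mainly uses, had 4.05, 4.95 and 4.04 TPM in the EMT6 knockout libraries, against 18.1, 15.4 and 15.2 TPM in the wild-type libraries. The groups lay far apart, with little spread within the knockout. Its log2 fold change was -1.69 ± 0.10 (SE), a knockout level of 0.268 times wild type in TPM, and it remained at -1.47 after median-ratio scaling and -1.28 after removal of the trend with exon length. Nrp2 (ENSMUSG00000025969, chromosome 1, 62703285 to 62818695), which SEMA3F prefers, had 33.8, 38.0 and 34.1 TPM in the knockout libraries against 47.7, 43.2 and 44.2 TPM in wild-type ones. The groups lay apart but close, with a log2 fold change of -0.34 ± 0.07 (SE) that was -0.10 and no longer called after median-ratio scaling, and 0.10, also not called, after removal of the length trend. Plxna1 (ENSMUSG00000030084, chromosome 6, 89316314 to 89362620), the signalling chain of the receptor, had 8.73, 11.9 and 10.1 TPM in the knockout libraries and 32.7, 24.5 and 22.3 TPM in the wild-type libraries. Every wild-type library held more Plxna1 than any knockout library, and the log2 fold change was -1.28 ± 0.17 (SE).

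Among the ligands, Sema3a (ENSMUSG00000028883, chromosome 5, 13125414 to 13602565), the archetypal axon repellent, had 10.9, 8.90 and 8.98 TPM in the knockout libraries and 28.3, 23.8 and 17.9 TPM in the wild-type libraries. The wild-type libraries spread widely but all stood above the knockout, with a log2 fold change of -1.18 ± 0.17 (SE). Sema3f (ENSMUSG00000034684, chromosome 9, 107681500 to 107710475) had 14.8, 15.9 and 15.6 TPM in the knockout libraries and 29.3, 30.0 and 25.8 TPM in the wild-type libraries, a log2 fold change of -0.83 ± 0.07 (SE). Both fell in the knockout under all 3 scalings, with Sema3a at -0.95 and Sema3f at -0.60 after median-ratio scaling and -0.71 and -0.55 after removal of the length trend. Sema3c (ENSMUSG00000028780, chromosome 5, 17574281 to 17730268) was not called. It had 38.5, 39.4 and 34.5 TPM in the knockout libraries and 51.6, 43.6 and 40.6 TPM in the wild-type libraries. Its log2 fold change was -0.26 ± 0.10 (SE), with -0.022 after median-ratio scaling and 0.088 after removal of the length trend. Sema3e (ENSMUSG00000063531, chromosome 5, 14025276 to 14256689) did not pass the filter: it was at 0.00270 TPM in 1 knockout library and listed at 0 in the other 2, against 0.162, 0.0921 and 0.103 TPM in the wild-type libraries.

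**Figure D1:**
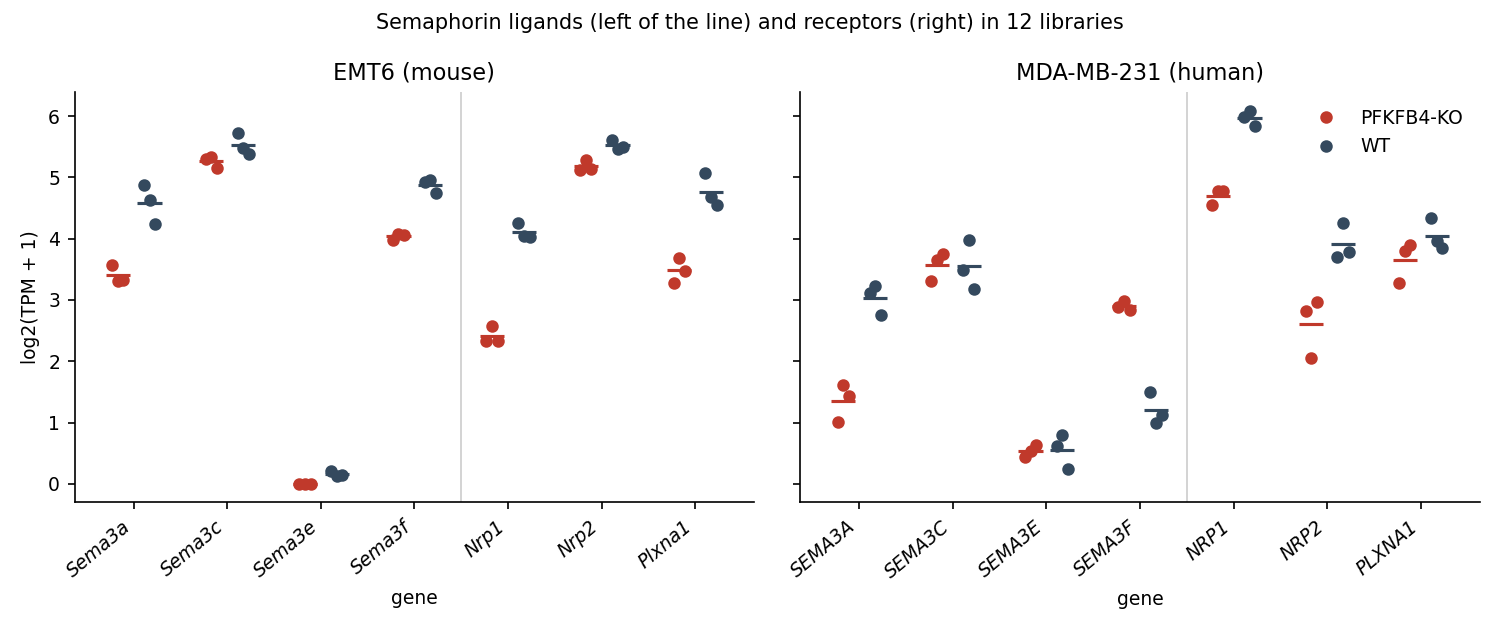
Level of each gene in every library as log2(TPM + 1), with PFKFB4-KO libraries to the left of WT libraries; points are libraries, short lines are means of 3, and the vertical line separates ligands from receptors. In EMT6 every knockout point lies below the wild-type points, while in MDA-MB-231 SEMA3F lies above and SEMA3C, SEMA3E and PLXNA1 overlap.

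In MDA-MB-231, SEMA3A and both neuropilins were lower in the knockout and SEMA3F was higher. The same model on 15299 tested genes called 3 of the 7 members lower, where 12.1% of tested genes were called lower, and 1 higher, where 7.97% were called higher and 20.0% in either direction. The knockout libraries lay wholly below wild type for 3 members and wholly above for 1, as they did for 22.9% and 17.2% of tested genes, and 3 members overlapped. The human table lists identifiers only, so positions and the wider human pathway were not analysed here.

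NRP1 (ENSG00000099250) had 22.5, 26.4 and 26.3 TPM in the MDA-MB-231 knockout libraries, against 62.7, 67.0 and 55.9 TPM in the wild-type libraries. The groups were far apart relative to their spread, with a log2 fold change of -1.27 ± 0.10 (SE). NRP2 (ENSG00000118257) had 6.02, 3.14 and 6.81 TPM in the knockout libraries and 12.1, 18.0 and 12.7 TPM in the wild-type libraries. Its log2 fold change of -1.30 ± 0.27 (SE) was about as large as that of NRP1 but varied more between libraries, and its call was lost without wild-type replicate 2 (log2 fold change -1.13) and also, at an unaltered log2 fold change, with no filter on low genes or with the replicate number as a block. PLXNA1 (ENSG00000114554) was not called, with 8.72, 12.9 and 13.9 TPM in the knockout libraries, 19.2, 14.6 and 13.3 TPM in wild type. Its log2 fold change was -0.39 ± 0.20 (SE), and the groups overlapped in 1 knockout and 1 wild-type library.

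SEMA3A (ENSG00000075213) had 1.02, 2.04 and 1.70 TPM in the knockout libraries and 7.67, 8.34 and 5.75 TPM in the wild-type libraries, a log2 fold change of -1.68 ± 0.20 (SE). SEMA3F (ENSG00000001617) had 6.40, 6.89 and 6.17 TPM in the knockout libraries and 1.84, 0.999 and 1.18 TPM in the wild-type libraries, a log2 fold change of 1.69 ± 0.15 (SE). These ligands moved in opposite directions by about the same amount on the log2 scale, and each had groups that lay well apart. SEMA3C (ENSG00000075223), with 8.87, 11.6 and 12.4 TPM in the knockout libraries and 10.3, 14.8 and 8.08 TPM in the wild-type libraries, had a log2 fold change of 0.014 ± 0.23 (SE). SEMA3E (ENSG00000170381) was low throughout, with 0.357, 0.446 and 0.560 TPM in the knockout libraries and 0.532, 0.745 and 0.184 TPM in wild type, and reached the filter level in 3 of 6 libraries. Neither SEMA3C nor SEMA3E separated the groups.

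**Figure D2:**
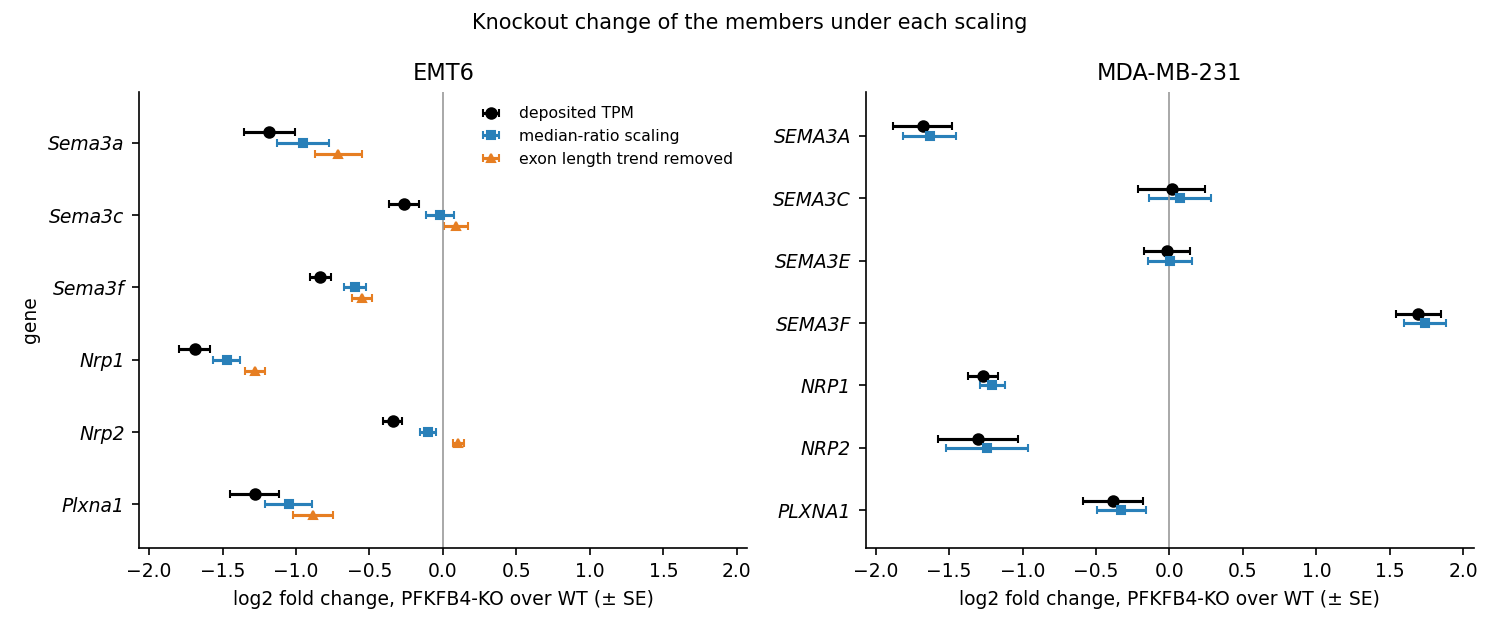
Log2 fold change of each tested gene, PFKFB4-KO over WT, on log2(TPM + 1) with bars of 1 SE; circles use the deposited TPM, squares median-ratio scaling and triangles (EMT6 only) removal of the trend with exon length. Nrp2 and Sema3c in EMT6 move from -0.34 and -0.26 to 0.10 and 0.088 with the length trend removed, while Nrp1 stays at -1.28 or lower.

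Set side by side, SEMA3A, NRP1 and NRP2 were called lower in both lines. For SEMA3A the log2 fold changes were -1.18 in EMT6 and -1.68 in MDA-MB-231, and for NRP1 they were -1.69 and -1.27. NRP2 was at -0.34 in EMT6, where the call depended on scaling, and at -1.30 in MDA-MB-231. SEMA3F was at -0.83 in EMT6 and at 1.69 in MDA-MB-231. The difference between the lines was not tested for any gene.

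The composition of the receptor pool differed between lines and between genotypes. Ratios within a library do not depend on a factor applied to the whole library, as in median-ratio scaling. Removal of the length trend shifts genes of different length by different amounts, and the ratios are given without it. In EMT6 the ratio of Nrp2 to Nrp1 was 8.35, 7.68 and 8.45 in the knockout libraries, against 2.63, 2.80 and 2.90 in the wild-type libraries, so that Nrp2 exceeded Nrp1 in every library and by most in the knockout. Nrp1 made up 8.70 ± 0.323% of the summed TPM of the 3 receptor chains in the knockout and 18.5 ± 0.125% in wild type (SD, n = 3 each). Nrp2 made up 70.8 ± 1.66% and 51.5 ± 2.87% in the same groups. In MDA-MB-231 the order was the other way round, with NRP2 to NRP1 ratios of 0.267, 0.119 and 0.259 in the knockout libraries and 0.192, 0.269 and 0.227 in the wild-type libraries. These ratios overlapped between the human groups. NRP1 made up 59.5 ± 3.21% of receptor TPM in the MDA-MB-231 knockout and 67.4 ± 0.759% in wild type, and PLXNA1 27.8 ± 3.81% and 17.1 ± 2.98% (SD, n = 3 each), with no overlap for either. Summed receptor TPM was 49.9 ± 4.38 in the knockout and 87.8 ± 9.32 in wild type for EMT6 (SD, n = 3 each). For MDA-MB-231 it was 37.3, 42.4 and 47.0 in the knockout libraries and 93.9, 99.6 and 82.0 in the wild-type libraries.

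The ligand pool also differed. Sema3c supplied 59.9 ± 1.52% of summed ligand TPM in the EMT6 knockout and 46.7 ± 1.76% in wild type, while Sema3a supplied 15.4 ± 1.56% and 23.8 ± 2.42%. In MDA-MB-231, SEMA3F supplied 33.6 ± 4.45% in the knockout and 6.95 ± 2.61% in wild type, and SEMA3A 8.02 ± 1.81% and 36.4 ± 2.47%. The ratio of SEMA3F to SEMA3A was 6.27, 3.38 and 3.62 in the MDA-MB-231 knockout libraries and 0.239, 0.120 and 0.206 in the wild-type libraries, so SEMA3F exceeded SEMA3A in each knockout library and SEMA3A exceeded SEMA3F in each wild-type library. In EMT6 that ratio was 1.36, 1.78 and 1.74 in the knockout and 1.03, 1.26 and 1.44 in wild type, and the groups overlapped. Summed ligand TPM was 62.5 ± 2.95 in the EMT6 knockout and 97.1 ± 12.5 in wild type, but 19.5 ± 2.46 and 20.1 ± 4.84 in MDA-MB-231, where the groups overlapped. Ligand over receptor TPM was 0.447, 0.495 and 0.442 in the MDA-MB-231 knockout libraries and 0.216, 0.250 and 0.185 in wild type, whereas in EMT6 it was 1.38, 1.17 and 1.22 in the knockout and 1.11, 1.17 and 1.03 in wild type.

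**Figure D3:**
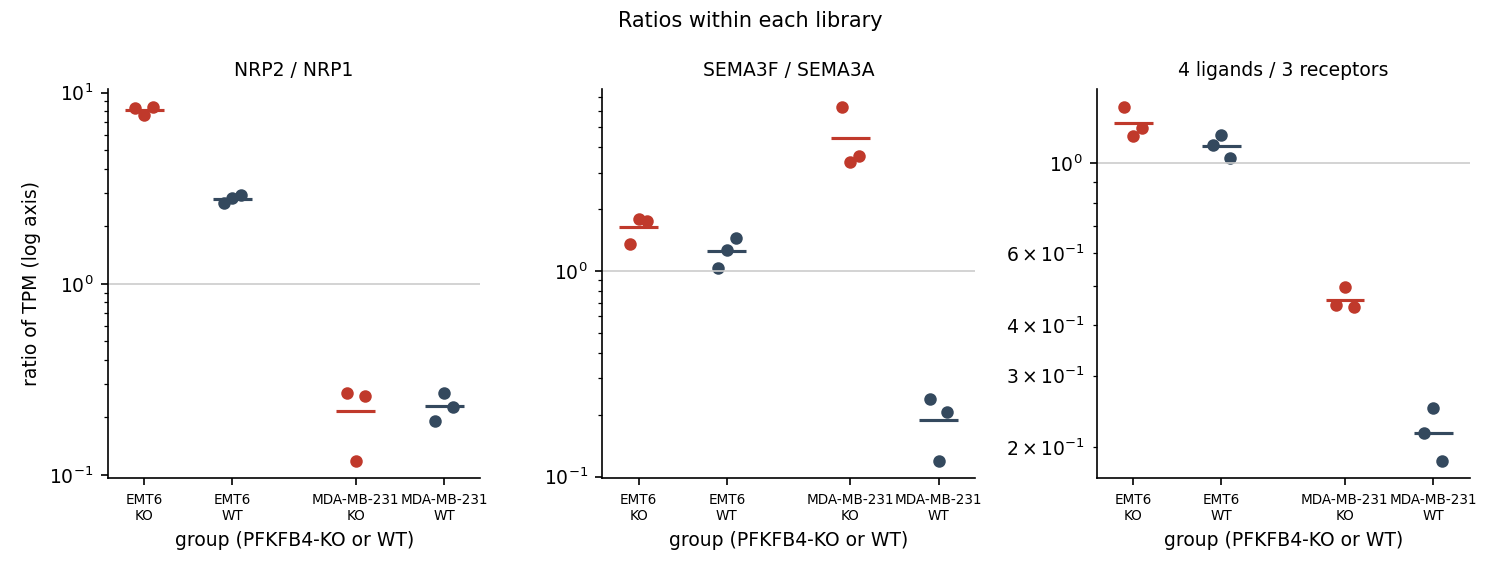
Ratio of TPM between members within each library, on a log axis, for NRP2 over NRP1, SEMA3F over SEMA3A and the 4 ligands over the 3 receptors; points are libraries and lines are means of 3, with PFKFB4-KO left of WT in each line. NRP2 over NRP1 separates the genotypes in EMT6 (8.16 and 2.78 on average) and SEMA3F over SEMA3A does so in MDA-MB-231 (4.42 and 0.188).

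By level, Sema3c and Nrp2 led in EMT6, at 37.4 and 35.3 TPM in the knockout and 45.3 and 45.0 TPM in wild type, and their libraries overlapped in both groups. Sema3f, Plxna1 and Sema3a followed. In wild type the libraries of each of these overlapped with those of the next in order, Nrp1 included, while in the knockout Nrp1 stood alone at 4.35 TPM, below Sema3a at 9.60 TPM. In MDA-MB-231 NRP1 was the highest member without overlap, at 25.1 TPM in the knockout and 61.9 TPM in wild type. The libraries of PLXNA1 and SEMA3C overlapped in both groups. SEMA3F ranked above SEMA3A in the MDA-MB-231 knockout and below it in wild type, without overlap in either, and SEMA3E was last in both lines. These are levels per length, and in bulk RNA fewer cells that express a gene cannot be told apart from less RNA per cell.

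The members have a long summed exon length, with the exons of all annotated transcripts of a gene merged. In EMT6 the change of a gene moved with this length, which need not be that of the transcript expressed. The merged exons of the members sum to between 5197 nt (Sema3f) and 13868 nt (Sema3a), against a median of 4451 nt over 11104 protein-coding tested genes. Of 5 equal classes of these genes by length, the shortest had a median log2 fold change of 0.082 and the longest one of -0.43. The longest class begins at 7610 nt and holds Sema3a, Nrp1, Nrp2 and Plxna1. Nrp1, Plxna1 and Sema3a lay well below that median and Nrp2, at -0.34, above it. With the length trend removed, 4 members were still called lower, namely Nrp1, Plxna1, Sema3a and Sema3f, where 26.6% of all tested genes were.

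In TPM, other genes of the semaphorin pathway were mostly called lower in the EMT6 knockout as well, but not under the other scalings. The lists, like the members, were chosen with earlier results known, so the adjusted p-values of list genes are a description. Of 80 genes in 7 lists, 54 passed the filter, of which limma called 36 lower and 5 higher, where 42.3% of all tested genes were lower and 14.5% higher, with a median log2 fold change of -0.43 against -0.21 over all tested genes. The counts were 21 lower and 11 higher with median-ratio scaling, where the median was -0.22 and all tested genes gave 24.7% lower and 27.1% higher. With the length trend removed they were 19 and 9, at a median of -0.13, where all tested genes gave 26.6% and 23.2%. Of the other class 3 semaphorins, Sema3b passed the filter and fell, with 2.54, 2.28 and 1.43 TPM in the knockout libraries against 7.42, 7.52 and 7.07 TPM in wild type (log2 fold change -1.45 ± 0.15 SE, limma adjusted p = 0.000814). Sema3d and Sema3g were under 0.1 TPM throughout. Among semaphorins of classes 4 to 7, which are mostly membrane-bound, 6 of 7 tested genes fell in TPM and 3 after median-ratio scaling. Sema4c stood at 1.90 ± 0.0725 TPM in the knockout and 4.12 ± 0.103 TPM in wild type (-0.82, limma adjusted p = 0.000332), and Sema4b at 4.66 ± 0.0655 and 7.75 ± 0.298 TPM (-0.63, adjusted p = 0.000628).

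Of 4 tested plexins outside the member list, 3 fell under each of the 3 scalings and 0 rose. All tested genes gave 42.3% lower and 14.5% higher in TPM, and 24.7% and 27.1% after median-ratio scaling. With the length trend removed they gave 26.6% and 23.2%. Plxnb1, the receptor of SEMA4D, had 0.592, 0.647 and 0.616 TPM in the knockout libraries and 5.06, 4.48 and 4.59 TPM in wild type (-1.82 ± 0.07 SE, limma adjusted p = 4.92e-05). Plxnd1, the receptor of SEMA3E, had 9.59, 8.15 and 9.56 TPM in the knockout libraries and 26.2, 25.3 and 26.3 TPM in wild type (-1.42 ± 0.07 SE, adjusted p = 0.000127). Plxna3 also fell (-0.75, limma adjusted p = 0.000697). Plxnb2, the most abundant plexin, was not called, at 126 ± 6.16 TPM in the knockout and 126 ± 17.5 TPM in wild type.

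Of 6 tested co-receptors and adhesion partners, 5 fell and 1 rose in TPM, and 2 and 1 after median-ratio scaling. All tested genes gave 42.3% lower and 14.5% higher in TPM, and 24.7% and 27.1% after that scaling. Met, a receptor tyrosine kinase that can associate with plexins, stood at 23.6 ± 2.45 TPM in the knockout and 48.6 ± 9.95 TPM in wild type (-1.0, limma adjusted p = 0.00274). Gipc1, an adaptor that binds the neuropilin tail, rose (0.40, adjusted p = 0.00161), and the adaptor Nck1 was at -0.29 (adjusted p = 0.00317) but lost its call after median-ratio scaling (-0.06). Of 26 signal transducers, 15 fell and 3 rose in TPM, against 8 and 7 after median-ratio scaling, which is near the 24.7% and 27.1% of all tested genes. Dpysl3, of the collapsin response mediator family, fell (-1.64, limma adjusted p = 0.000213), as did Sh3bp1, a GTPase-activating protein for Rac (-0.93, adjusted p = 0.000553). Cfl1, the actin-severing protein cofilin, rose (0.39, adjusted p = 0.00114), and so did the small GTPase Rras (0.30, adjusted p = 0.00238), a substrate of plexins, although Rras lost its call with the length trend removed (0.13).

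Of 5 tested convertases and proteases, which can process semaphorins or shed membrane proteins, 4 fell and 0 rose in TPM, and 2 and 0 after median-ratio scaling. All tested genes gave 42.3% lower in TPM and 24.7% after that scaling. Adam17 stood at 13.2 ± 1.53 TPM in the knockout and 31.0 ± 2.73 TPM in wild type (-1.18, limma adjusted p = 0.000490), and Adam10 was at -0.49 (adjusted p = 0.00348). In the list of VEGF ligands and receptors, 2 of 5 tested genes fell and 1 rose, with 2 and 3 after median-ratio scaling. In TPM the share that fell was near the 42.3% of all tested genes, of which 14.5% rose. After median-ratio scaling 24.7% of all tested genes fell and 27.1% rose. Vegfa fell to 25.7 ± 3.56 TPM in the knockout, against 50.8 ± 3.07 TPM in wild type (-0.97, limma adjusted p = 0.000942). Pgf fell (-1.23, adjusted p = 0.000253) and Vegfc rose (0.39, adjusted p = 0.00496). The VEGF receptor genes Kdr, Flt1 and Flt4 did not pass the filter. Summed TPM of 7 leukocyte markers was 58.0 to 63.5 in the knockout libraries and 24.7 to 28.8 in wild type. Most of it was Cd68 (56.1 TPM in the knockout and 23.9 TPM in wild type), and Coro1a stood at 5.14 and 2.17 TPM. These 2 were the only leukocyte markers tested, and both were called higher under each of the 3 scalings. In TPM 14.5% of all tested genes were called higher. The other 5 leukocyte markers, Ptprc among them, averaged under 1 TPM in both groups. Summed TPM of 5 endothelial markers was 0.0672 to 0.198 in the knockout libraries and 0.191 to 0.318 in wild type, so their defining genes were at or near 0.

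**Figure D4:**
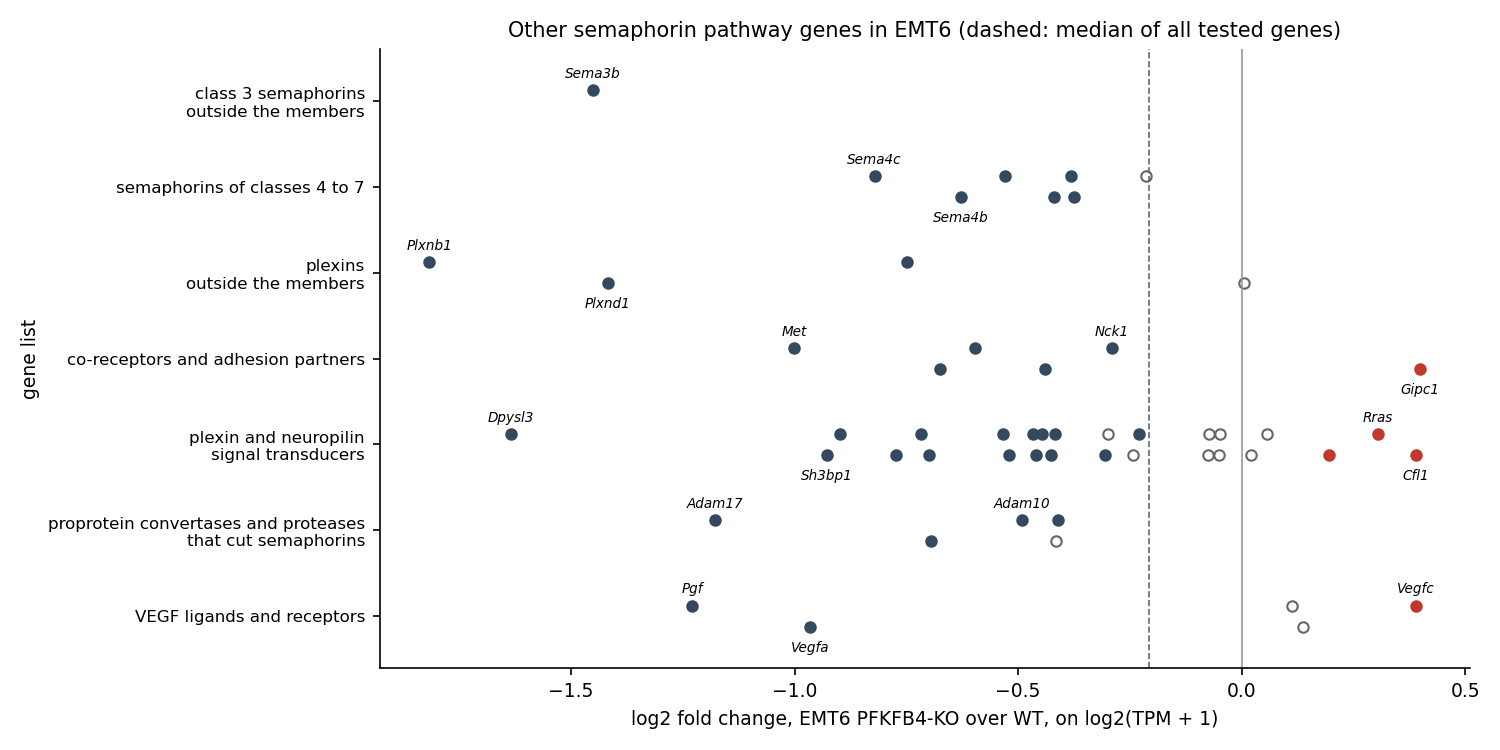
Log2 fold change, EMT6 PFKFB4-KO over WT, of the tested genes in 7 semaphorin pathway lists; each point is a gene, dark points were called lower, red points higher and open points were not called, and the dashed line is the median of all tested genes at -0.21. Plxnb1 (-1.82), Dpysl3 (-1.64) and Sema3b (-1.45) lie furthest to the left.

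Several of these genes lie near the targeted gene, Pfkfb4, on mouse chromosome 9. Here the start and end of a gene are its lowest and highest coordinates, whatever its strand. Sema3b and Sema3f lie on the minus strand. Sema3b and Sema3f are neighbours, 72.3 kb apart, and Sema3f ends 1.28 Mb before Pfkfb4 begins. Plxnb1 (109095389 to 109119917) begins 63.2 kb after Pfkfb4 ends. Among 86 tested genes that start within 2 Mb of the start of Pfkfb4, with Pfkfb4 itself counted, 33 were called lower and 7 higher. The 38.4% called lower is close to the 42.3% of all tested genes. Within this window Plxnb1 and Sema3b had the 2 lowest log2 fold changes and Sema3f ranked 8 from the lowest. Of the 45 tested genes between Sema3f and Pfkfb4, 16 were called lower and 3 higher. The order within the window was looked at after the values were known and was not tested.

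**Figure D5:**
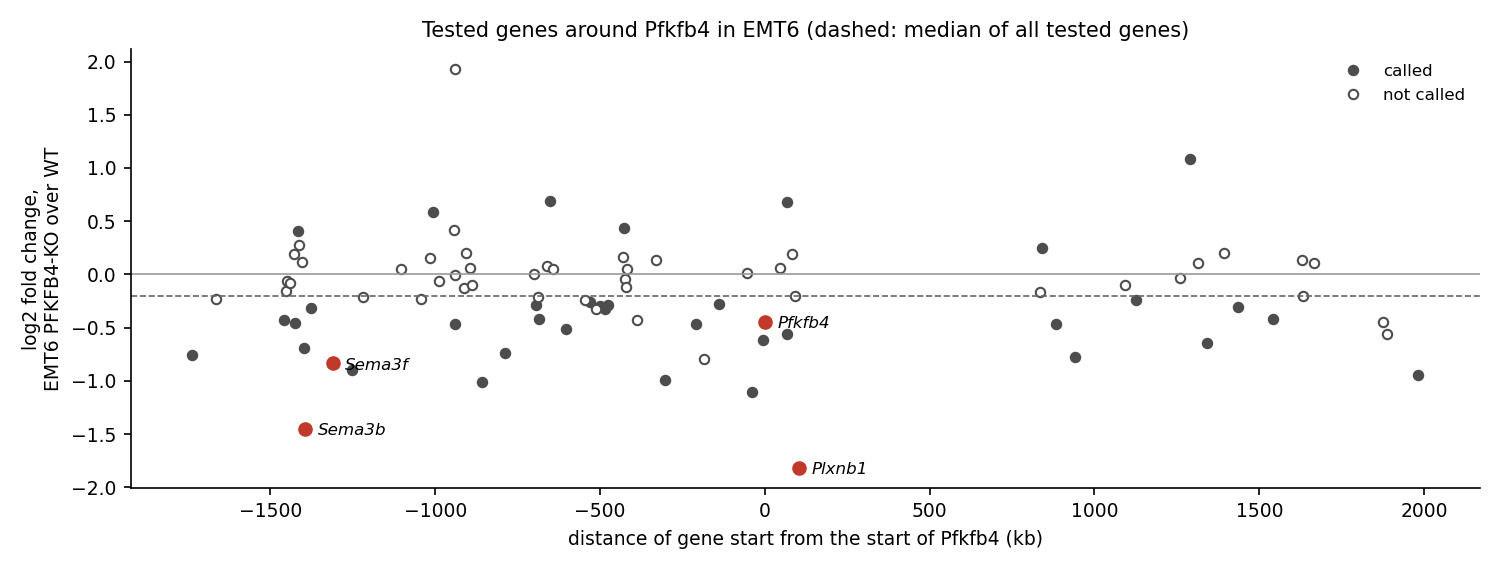
Log2 fold change of tested genes, EMT6 PFKFB4-KO over WT, against the distance of the gene start (its lowest coordinate) from the start of Pfkfb4 in kb. Filled points were called, open points were not, and the dashed line is the median of all tested genes. Plxnb1 (-1.82), Sema3b (-1.45) and Sema3f (-0.83) lie low in a window whose median, with these genes and Pfkfb4 counted, was -0.21.

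The member with the largest absolute change was Nrp1 in EMT6 and SEMA3F in MDA-MB-231, although SEMA3F (1.69 ± 0.15 SE) and SEMA3A (-1.68 ± 0.20 SE) were tied within error. Without knockout replicate 2 SEMA3A was at -1.81 and SEMA3F at 1.65, and without wild-type replicate 3 they were at -1.82 and 1.65. Likeness to each was measured as the root mean square difference, over the 6 libraries, of log2(TPM + 1) centred on the gene mean, among 8728 mouse and 9152 human genes that averaged 5 TPM or more. Nearest to Nrp1 were mt-Nd4l, a mitochondrially encoded subunit of complex I (difference 0.045, log2 fold change -1.65), Qk, an RNA-binding protein (0.064, -1.65), and Scd1, a fatty acid desaturase (0.079, -1.63). Nearest to SEMA3F were the unnamed identifiers ENSG00000178150 (0.15, log2 fold change 1.74) and ENSG00000111863 (0.18, 1.34).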

How the data were processed

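The authors deposited TPM for all genes in 1 table per line, with each column summing to 1000000. The submitters' processing notes list Subread 1.6.4, featureCounts, TopHat2 2.1.1 and CASAVA 1.8.2 as tools, and GRCh38.p7 and mm10 as builds. Whether strand was used in counting is not given in the sources used here, and TPM keeps no read depth. Knockout columns were assigned by elimination, since headers name the remaining 3 columns per line as wild type. Knockout replicate numbers are those of the column headers, and which labelled sample each one is was not given.

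Differential expression was tested on log2(TPM + 1) with limma 3.58.1 in R 4.3.3, allowing for a mean-variance trend, within each line and without covariates, on genes with at least 0.5 TPM in 3 of 6 libraries, with Benjamini-Hochberg adjustment over all tested genes and calls at 0.05. Adding 1 understates changes of low genes. The p-values rest on the spread among libraries that the labels call biological replicates, with no culture or clone named for each. The fit was tested on simulated data. GENCODE M21 (GRCm38, the same assembly as mm10) gave mouse symbols for 54097 of 54331 identifiers, with positions and exon lengths, and RefSeq gave promoters. Other values were computed in Python 3.11.15. The members and lists were chosen with earlier results of these data known. Beside all members, the text names, for each list, up to 2 genes called higher and 2 called lower, by smallest adjusted p, and the genes nearest in profile to 1 member per line; Plxna3, Plxnb2, Sema3d, Sema3g, the VEGF receptors and the markers were added after their values were seen. No 2 libraries shared more than 0.00694% of values. Alternatives were median-ratio scaling, a pseudocount of 0.1, no filter or 1 TPM, no trend, each library left out, a replicate block and, for mouse, removal of the exon length trend (lowess per library, fitted on protein-coding genes).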

Additional observations from a re-analysis of the deposited data

Results flagged for a closer look

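SEMA3F differed between the lines: every knockout library lay below every wild-type library in EMT6 (log2 fold change -0.83), and every knockout library lay above every wild-type library in MDA-MB-231 (log2 fold change 1.69). It was picked out because all libraries of each line moved one way and the lines moved in opposite directions. The difference between the lines was not tested. The signs held under every alternative and with any 1 library left out, and with libraries left out the log2 fold change of Sema3f lay between -0.90 and -0.79 and that of SEMA3F between 1.59 and 1.84.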

How the results depend on the processing

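Nrp1, Plxna1, Sema3a and Sema3f in EMT6 and NRP1, SEMA3A and SEMA3F in MDA-MB-231 kept their direction and call under every alternative. Removal of the length trend turned Sema3c to 0.088 and Nrp2 to 0.10 in EMT6. SEMA3E in MDA-MB-231 turned to 0.0035 with median-ratio scaling and 0.040 with a pseudocount of 0.1. With 1 library left out, SEMA3C in MDA-MB-231 ranged over -0.17 to 0.23 and SEMA3E over -0.17 to 0.11. Sema3c in EMT6 ranged over -0.34 to -0.17 and was called lower without wild-type replicate 3, which gave 6 members lower, as did the replicate block and no filter, the last by calling Sema3e.

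Over whole tables, EMT6 had 5705 genes called lower and 1954 higher, against 3327 and 3660 with median-ratio scaling and 3589 and 3124 with the length trend removed. MDA-MB-231 had 1845 lower and 1220 higher, and 1658 and 1730 with median-ratio scaling. With 1 library left out, MDA-MB-231 gave 975 to 1597 lower and 543 to 1107 higher. The lower count fell by over 1.5 times without knockout replicate 2 (1008), wild-type replicate 1 (975) or wild-type replicate 3 (1209), and the higher count without these (543, 584 and 759) or knockout replicate 3 (578). The pathway lists, at 36 lower and 5 higher, gave 21 and 11 with median-ratio scaling and 19 and 9 with the length trend removed. Lower calls among co-receptors, 5 in all, were 3 without knockout replicate 2 or wild-type replicate 1. Those among convertases and proteases, 4 in all, were 2 without wild-type replicate 1 or 3, with no filter or with the replicate block.

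Numbers in the column headers did not pair the libraries: deviations of same-numbered libraries correlated at 0.065, -0.017 and 0.073 in EMT6 and 0.0017, 0.11 and -0.13 in MDA-MB-231. Whether the labelled replicates pair cannot be read from this, as no label ties a knockout column to a labelled replicate. The replicate block gave 1030 genes lower and 534 higher in MDA-MB-231, and lost the call of NRP2. Not every library correlated best with its own number. Removal of the length trend and the pathway lists were not run for MDA-MB-231, for want of gene lengths and names. The causes of these shifts were not tested.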

Other observations

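Some libraries held the highest or lowest value of their group for most members. In EMT6, wild-type replicate 1 was highest for 6 of the 7 members, as for 42.2% of tested genes, and wild-type replicate 3 lowest for 5, as for 29.6% of tested genes. EMT6 knockout replicate 2 was highest for 5 of the 7, as for 42.6% of tested genes, while knockout replicate 1 was highest for 2 and lowest for 3, and knockout replicate 3 highest for 0 and lowest for 2, with Sema3e, listed at 0 in knockout replicates 2 and 3, counted for replicate 2. In MDA-MB-231, knockout replicate 1 was lowest for 5 of the 7, as for 55.6% of tested genes. Wild-type replicate 2 was highest for 5, as for 33.9%, and wild-type replicate 3 lowest for 5, as for 40.7%. The members of a library are not independent, and these counts were not tested.

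Exons of 2 mouse members overlap other annotated genes. Plxna1 shares 970 nt with the antisense gene Gm26811, which reached 0.0193 TPM in the knockout and 0.0314 TPM in wild type. Nrp1 shares 80 nt with Mir1903, which was listed at 0 in all knockout libraries and reached 7.19 TPM in 1 wild-type library.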
